A study of Homo sapiens with 4 samples.

Results

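The intergenic H3K27ac peaks of SK-N-BE(2)C cells are described here. They are the peaks of the sgCtrl and sgSNHG1 lists on chromosomes 1 to 22 whose midpoint lay outside every GENCODE gene body of type protein-coding or lncRNA and over 5000 bp from every start site of these genes. There were 10550 such peaks among the 63051 peaks of the sgCtrl list (16.7%) and 7842 among the 49412 peaks of the sgSNHG1 list (15.9%), 18392 of 112463 in all. By the distance to the nearest protein-coding start site, 5515 sgCtrl and 3998 sgSNHG1 peaks lay within 50 kb and 5035 and 3844 lay over 50 kb away. The median distance was 46171.5 bp in sgCtrl and 48325 bp in sgSNHG1, so that many of these peaks were not far from a gene, and the most distant lay 5487621 bp away.

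SK-N-BE(2)C is a human neuroblastoma (NB) cell line with amplified *MYCN*. The sgCtrl cells (2 samples) received a non-targeting control gRNA, and the sgSNHG1 cells (2 samples) received gRNA against *SNHG1*, a lncRNA gene. The genotype given for the sgSNHG1 cells is *SNHG1* knockout. The paper states, however, that the editing did not remove *SNHG1* completely and repressed its expression. Both groups of cells came through Cas9 transfection, puromycin selection and sorting of single cells, so that *SNHG1*-depletion cells are grown from clones, and the clone used is not named. Genotype and clone therefore cannot be told apart. The authors merged both samples of a group before peak calling, so that there was 1 list per group and no replicate value. No comparison could therefore be tested. Intervals (95%) come from counts of peaks and cover counting error only.

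H3K27ac, acetylation of lysine 27 of histone H3, marks active promoters and active enhancers, and it is deposited by the acetyltransferases p300 and CBP and removed by histone deacetylases. Outside genes and away from start sites it is commonly used to find enhancers, which can act on promoters over long distances and often lie in groups near genes that define a cell type. In NB such groups are known at transcription factors of the adrenergic (ADRN) core regulatory circuitry. The nearest start site does not show which gene an enhancer acts on, and it is used below as a position only.

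The reference sequence about the strongest peaks shows what kind of DNA lay under them. The 2 sequences below are the 300 bp about the midpoints of strong sgCtrl peaks 5 to 50 kb from a protein-coding start site. They are among the highest by fold enrichment of the peaks that were found in both lists and whose 30-base stretches occur once in the reference. They are printed 5′ to 3′ on the plus strand of GRCh38, with matches to CAGNTG (an E-box form bound by many bHLH factors) in capitals, on both strands. The *CDKN2C* sequence is chr1:50977854-50978153 and the *C2orf42* sequence is chr2:70142079-70142378. The GATA factor motif, AGATAA, was not in these windows. The AP-1 motif, TGANTCA, was not in them either.
CDKN2C: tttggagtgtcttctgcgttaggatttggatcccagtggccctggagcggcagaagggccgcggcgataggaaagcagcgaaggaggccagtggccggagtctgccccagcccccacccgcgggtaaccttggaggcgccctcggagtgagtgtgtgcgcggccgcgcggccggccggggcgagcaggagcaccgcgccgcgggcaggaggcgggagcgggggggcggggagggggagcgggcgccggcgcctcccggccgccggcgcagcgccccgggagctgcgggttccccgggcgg
C2orf42: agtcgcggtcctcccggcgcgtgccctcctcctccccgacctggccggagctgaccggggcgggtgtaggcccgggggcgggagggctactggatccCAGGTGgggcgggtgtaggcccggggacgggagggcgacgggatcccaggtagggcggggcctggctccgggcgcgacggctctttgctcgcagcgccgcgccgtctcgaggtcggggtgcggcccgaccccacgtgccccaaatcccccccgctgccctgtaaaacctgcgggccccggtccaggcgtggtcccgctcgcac
These windows each held 76.7% G and C, with 39 and 37 CpG dinucleotides, a composition found at CpG islands, which mostly mark promoters. Neither of these peaks lay in an annotated gene of any type. *CDKN2C* encodes a cyclin-dependent kinase inhibitor. The peak downstream of *CDKN2C*, 7759 bp from its start site, had a fold enrichment over the local background of 16.5 in sgCtrl and 15.5 in sgSNHG1. For the peak downstream of *C2orf42* these values were 10.9 and 11.1. The log2 ratios (sgSNHG1 over sgCtrl) were -0.09 and 0.02.

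The same choice over 50 kb from a start site gave sequences of another kind. The *CWH43* sequence is chr4:49657451-49657750, the *PROS1* sequence is chr3:93470436-93470735 and the *OR11H1* sequence is chr22:12693591-12693890. Capitals mark GGAAT, on both strands, in the *CWH43* sequence and CAGNTG matches in the *OR11H1* sequence, and the *PROS1* sequence held none.
CWH43: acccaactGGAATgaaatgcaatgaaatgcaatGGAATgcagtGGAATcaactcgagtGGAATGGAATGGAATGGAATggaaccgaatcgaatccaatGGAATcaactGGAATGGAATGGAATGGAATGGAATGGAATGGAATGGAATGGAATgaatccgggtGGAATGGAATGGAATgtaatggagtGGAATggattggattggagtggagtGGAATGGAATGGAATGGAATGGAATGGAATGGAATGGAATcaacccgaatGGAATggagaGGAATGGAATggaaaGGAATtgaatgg
PROS1: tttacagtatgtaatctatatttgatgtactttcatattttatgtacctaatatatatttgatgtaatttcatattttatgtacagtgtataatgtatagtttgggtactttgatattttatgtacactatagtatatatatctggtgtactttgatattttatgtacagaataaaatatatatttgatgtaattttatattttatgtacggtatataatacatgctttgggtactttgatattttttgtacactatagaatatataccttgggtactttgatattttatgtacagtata
OR11H1: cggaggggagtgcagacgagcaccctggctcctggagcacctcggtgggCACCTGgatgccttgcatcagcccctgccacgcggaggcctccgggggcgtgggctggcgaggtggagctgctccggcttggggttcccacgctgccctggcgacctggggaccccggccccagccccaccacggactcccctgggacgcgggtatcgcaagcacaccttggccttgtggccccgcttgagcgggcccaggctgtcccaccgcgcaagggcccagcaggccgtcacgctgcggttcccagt
The *CWH43* window held 33 copies of GGAAT, the unit known from human satellite DNA near centromeres. The *PROS1* window held 22% G and C and was an AT-rich run in which similar stretches recur, and the *OR11H1* window held 73% G and C. Their fold enrichment was 24.0, 20.6 and 19.1 in sgCtrl and 24.0, 19.9 and 16.1 in sgSNHG1. The highest of these, nearest *CWH43*, was thus over tandem repeats although its 30-base stretches had 1 copy.

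A peak nearest *ISL1*, which encodes a LIM homeodomain factor of the ADRN circuitry, is shown for comparison, and it was chosen after its values were seen. It is the strongest peak of 1 copy found in both lists with the *ISL1* start site as the nearest. Its sequence is chr5:51399065-51399364, and capitals mark CAGNTG and AGATAA matches on both strands.
ISL1: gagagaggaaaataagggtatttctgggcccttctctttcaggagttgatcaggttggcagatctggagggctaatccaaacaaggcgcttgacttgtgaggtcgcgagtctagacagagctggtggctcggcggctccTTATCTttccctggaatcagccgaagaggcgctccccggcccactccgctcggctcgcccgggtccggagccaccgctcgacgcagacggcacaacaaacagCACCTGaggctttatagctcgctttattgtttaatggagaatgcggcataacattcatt
The peak lay 13011 bp downstream of the *ISL1* start site and had a fold enrichment of 4.68 in sgCtrl and 5.90 in sgSNHG1. Its window held 55.3% G and C and 1 match to AGATAA, read as TTATCT on the plus strand. Of the 4 sgCtrl peaks nearest *ISL1* that were found in both lists, 3 had a lower fold enrichment in sgSNHG1 (median log2 ratio -0.22). Over all intergenic peaks found in both lists, 63.3% were lower. The peak shown, with a log2 ratio of 0.33, was thus the exception among the 4. Its fold enrichment in sgCtrl was lower than that of the 5 peaks named before it.

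The sgSNHG1 list held fewer intergenic peaks than the sgCtrl list. There were 0.743 sgSNHG1 peaks for each sgCtrl peak (0.722 to 0.765), or 25.7% fewer. This ratio was 0.784 (0.775 to 0.793) over all peaks of chromosomes 1 to 22, 0.930 (0.911 to 0.949) for promoter peaks (at most 1 kb from the start site of a protein-coding gene), 0.704 (0.688 to 0.720) for distal peaks in gene bodies and 0.721 for the remaining peaks near start sites. Intergenic peaks thus stood between promoter peaks and distal peaks in gene bodies. The ratio was 0.725 (0.696 to 0.755) within 50 kb and 0.763 (0.732 to 0.796) over 50 kb, and these intervals overlap. With only as many of the strongest sgCtrl peaks kept as there were sgSNHG1 peaks, the ratio was 1.01 (0.978 to 1.04) for intergenic peaks and 1.04 (0.997 to 1.09) for those over 50 kb, and both intervals include 1.

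The space open to intergenic peaks was 993 Mb, 36.0% of the sequenced bases of these chromosomes. The sgCtrl list held 21.1 peaks per Mb of this space at 5 to 10 kb from a protein-coding start site, 13.5 at 50 to 100 kb, 5.76 at 200 to 500 kb and 2.79 beyond 1000 kb. The sgSNHG1 list held 15.9, 9.67, 4.66 and 2.41 in the same zones. Peaks were therefore sparser at greater distance in both lists, and the lists were closer to each other at the far end, where the counting intervals overlap. The ratio of peak number was 0.704 (0.664 to 0.746) at 20 to 50 kb and 0.862 (0.731 to 1.02) beyond 1000 kb. Peaks whose sequence occurs more than once in the reference made up 24.8% of sgCtrl peaks at 5 to 10 kb and 50.8% beyond 1000 kb, and among peaks of 1 copy the ratio was 0.733 and 0.760 in these 2 outer zones.

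**Figure D1:**
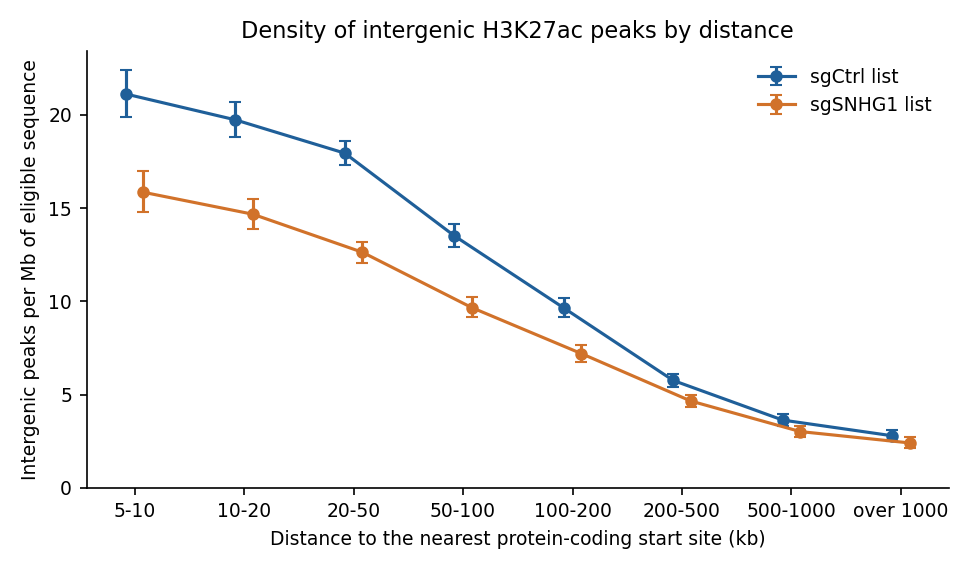
Intergenic peaks per Mb of eligible sequence (y axis, linear) against the distance to the nearest protein-coding start site in kb (x axis, 8 zones) for the sgCtrl and sgSNHG1 lists; bars are 95% Poisson intervals of the counts. The density runs from 21.1 to 2.79 per Mb in sgCtrl and from 15.9 to 2.41 in sgSNHG1, and the lists approach each other beyond 500 kb.

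At the border of the definition, 384 sgCtrl peaks outside genes lay 4 to 5 kb from a start site and 419 lay 5 to 6 kb away. Of these, 57.3% and 53.7% were overlapped by an sgSNHG1 peak, and the median fold enrichment was 3.47 and 3.49.

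Of the sgCtrl intergenic peaks, 53.9% (53.0 to 54.9) shared at least 1 bp with a peak of the sgSNHG1 list, and 4861 did not (background over all sgCtrl peaks of chromosomes 1 to 22: 38.7%). Of the sgSNHG1 intergenic peaks, 74.1% (73.1 to 75) were overlapped by an sgCtrl peak, and 2033 were not (background 20.6%). Both shares of intergenic peaks found in both lists were below those of all peaks, which were 61.3% and 79.4%. They were close to those of distal peaks in gene bodies (51.0% and 74.2%) and below those of promoter peaks (80.0% and 86.2%). For sgCtrl peaks the share was 53.6% within 50 kb and 54.3% over 50 kb, and for sgSNHG1 peaks it was 75.7% and 72.4%.

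Most of the peaks without a partner were weak. Among sgCtrl intergenic peaks, 22.1% of those with a −log10 p of 6 to 10 were overlapped by an sgSNHG1 peak, against 50.7% at 10 to 20, 90.1% at 20 to 40 and 99% of the 592 peaks over 40. Within these bands the promoter peaks of sgCtrl had 33.3%, 65.7%, 96.4% and 99.9%. The distal peaks in gene bodies of sgCtrl had 22.1%, 47.1%, 89.7% and 98.6%. In sgCtrl the intergenic share was above that of distal peaks in gene bodies at 10 to 20 (49.4 to 52.0 against 46.2 to 48.1), and the counting intervals of these classes overlapped in the other bands. In sgSNHG1 it was below at 6 to 10, with 55.5% (53.5 to 57.6) against 59.1% (57.5 to 60.7), intervals that touch. The promoter peaks of sgSNHG1 had 60.1% (57.9 to 62.2), 76.0% (74.8 to 77.1), 92.5% (91.6 to 93.3) and 99.8% (99.6 to 99.8). Above 10 the intergenic peaks of sgSNHG1 had 76.7% (75.4 to 78.0), 94.7% (93.2 to 95.9) and 96.9% (94.7 to 98.2). They were thus below promoter peaks at 6 to 10 and over 40 only. The median −log10 p was 13.3 for intergenic and 22 for promoter peaks of sgCtrl.

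**Figure D2:**
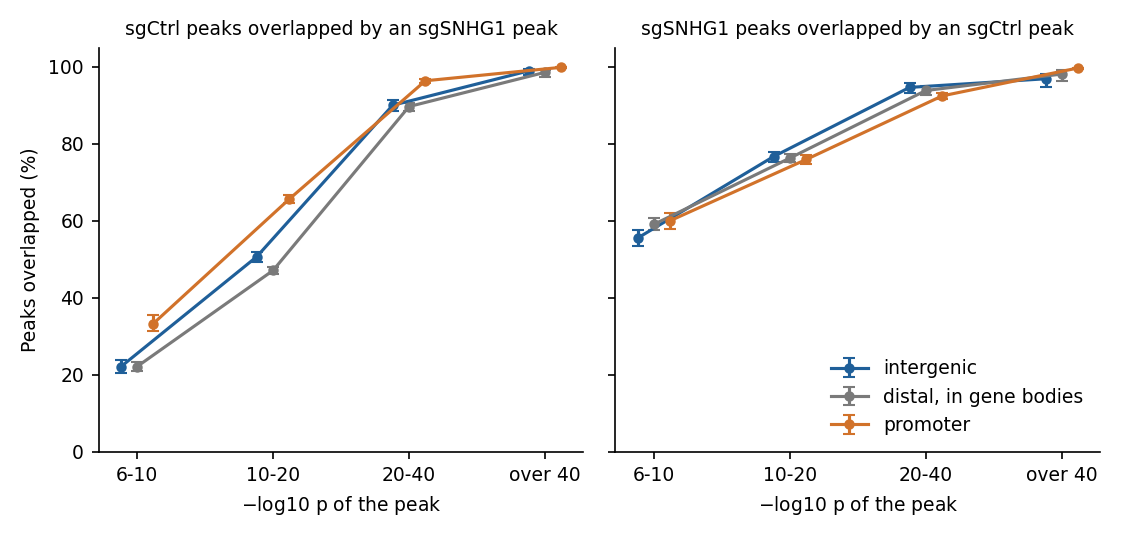
Percent of peaks overlapped by a peak of the other list (y axis) in 4 bands of −log10 p (x axis), for intergenic peaks, distal peaks in gene bodies and promoter peaks; the left panel shows sgCtrl peaks, the right panel sgSNHG1 peaks, and bars are 95% Wilson intervals. In sgCtrl the intergenic share runs from 22.1% to 99% and lies below the promoter share in the bands under 40.

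The peaks of the 2 lists were of similar height. The median fold enrichment of intergenic peaks was 3.93 in sgCtrl and 3.92 in sgSNHG1, with median lengths of 375 and 350 bp. Over 50 kb it was 4.15 and 4.10, and within 50 kb 3.73 and 3.74. The number of fragments over a peak, recovered from the deposited values, had a median of 41 in sgCtrl and 37 in sgSNHG1, and the lowest background of a list was 4.89 and 4.66 fragments, a ratio of 0.952. These values show that the weaker peaks rest on few fragments.

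At the 5689 sgCtrl intergenic peaks found in both lists, the fold enrichment was slightly lower in sgSNHG1. The median log2 ratio was -0.09 (-0.10 to -0.08), and 63.3% of these peaks had a lower value in sgSNHG1. The median was -0.03 over all peaks found in both lists, -0.08 at distal peaks in gene bodies and 0.03 at promoter peaks. A fold enrichment at least 1.5 times lower in sgSNHG1 was seen at 278 intergenic peaks (4.89%; background 2.6%), and at least 1.5 times higher at 47 (0.826%; background 1.74%). The small shift at intergenic peaks was thus shared with other distal peaks and was not seen at promoters. Measured as fragments over the lowest background of each list, an alternative chosen after seeing the data, the median was -0.20 at intergenic peaks and 0.07 at promoter peaks.

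The shift in fold enrichment, but not that in fragments, was larger at peaks of repeated sequence. Peaks were divided by how often their 30-base stretches occur in the reference (the median of 10 stretches a peak). Of the sgCtrl intergenic peaks 2802 (26.6%) had over 1 copy, and of the sgSNHG1 intergenic peaks 2288 (29.2%), against 16.3% and 16.5% of all peaks and 4.74% and 4.51% of promoter peaks. Among peaks found in both lists, 9.41% of those with over 1 copy and 2.89% of those with 1 copy were at least 1.5 times lower in sgSNHG1, with median log2 ratios of -0.15 and -0.07. For fragments over the lowest background these medians were -0.19 (-0.22 to -0.17) and -0.20 (-0.22 to -0.19). Peaks with over 1 copy had a higher median fold enrichment in sgCtrl, 4.73 against 3.72. They had fewer fragments (median 38 against 43) over a lower local background (median 5.92 against 10.5). The ratio of peak number was 0.817 (0.773 to 0.863) for over 1 copy and 0.717 (0.693 to 0.742) for 1 copy.

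**Figure D3:**
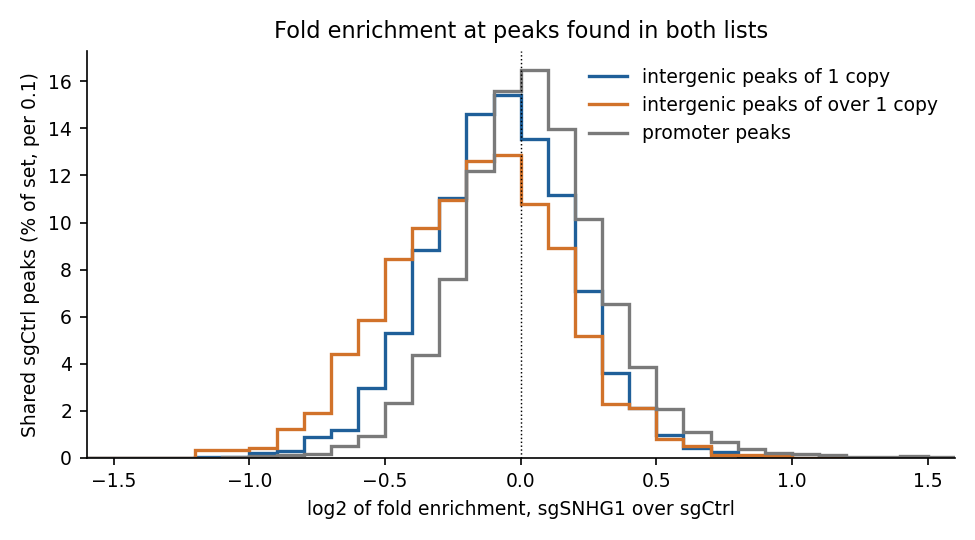
Distribution of the log2 ratio of fold enrichment, sgSNHG1 over sgCtrl (x axis, steps of 0.1), at sgCtrl peaks found in both lists, as percent of each set (y axis), for intergenic peaks of 1 copy, intergenic peaks of over 1 copy and promoter peaks. The medians are -0.07, -0.15 and 0.03, in this order, and 9.41% of the set of over 1 copy is at least 1.5 times lower in sgSNHG1.

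The strongest intergenic peaks lay mostly over repeated sequence and far from protein-coding start sites in both lists. Among the 20 of highest fold enrichment, 17 in sgCtrl and 18 in sgSNHG1 had over 1 copy, and all 20 in each list lay over 50 kb from a protein-coding start site. The 5 strongest sgCtrl peaks over 50 kb were found in both lists and had *TPTE*, *SRGAP2C*, *ZNF33B*, *H3-7* and *WSB1* as the genes of nearest start site. The peak nearest *TPTE*, at chr21:6498657-6499200 and 4022624 bp from the gene, had a fold enrichment of 34.2 in sgCtrl and 35.0 in sgSNHG1. Its midpoint lay in an annotated gene of a type that the definition does not count. The peak nearest *SRGAP2C*, a human-specific copy of *SRGAP2*, had 28.1 and 29.7 at chr1:125179838-125180557, with 3769 and 4242 fragments. The other 3 had 27.8, 26.0 and 25.5 in sgCtrl and 28.1, 27.9 and 26.2 in sgSNHG1. These 5 peaks had between 1.5 and 1197.5 copies, and their log2 ratios lay between 0.01 and 0.10, so that none was lower in sgSNHG1.

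Within 50 kb the 5 strongest sgCtrl peaks found in both lists had *CDKN2C*, *SEC22B*, *HEATR6*, *HGH1* and *OR4F5* as nearest genes. *SEC22B* encodes a vesicle-trafficking protein and *OR4F5* an olfactory receptor. The peak nearest *SEC22B* had a fold enrichment of 15.9 in sgCtrl and 15.1 in sgSNHG1, and the peak nearest *HEATR6* had 15.1 and 15.2. The peak nearest *HGH1* had 13.9 and 12.3, and the peak nearest *OR4F5* had 12.1 and 9.98. Of these 5 peaks, those nearest *CDKN2C* and *HGH1* had 1 copy, and the others had 2 to 7. The midpoints of the peaks nearest *SEC22B*, *HEATR6* and *OR4F5* lay in annotated genes of types that the definition does not count. Sequence of over 1 copy was thus found among these 5 peaks as well, in few copies and at lower heights than over 50 kb.

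Tandem GGAAT units were found at few peaks and almost only over 50 kb from genes. A window of 300 bp with at least 10 GGAAT units, a count made after the sequences were seen, occurred at 132 sgCtrl intergenic peaks (1.25%) and 134 sgSNHG1 intergenic peaks (1.71%), and 130 and 132 of these lay over 50 kb away. Such windows made up 0.197% of 198501 windows taken every 5 kb of the eligible space, and none of the promoter peaks had one. Of the 132 sgCtrl peaks, 119 were found in both lists. This group did not share the lower number in sgSNHG1.

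The intergenic peaks were rich in G and C. The median GC content of the 300 bp about the midpoint was 62.0% in sgCtrl and 62.3% in sgSNHG1, against 39.0% over the windows of the eligible space, 63.3% over all sgCtrl peaks and 67.0% at promoter peaks. A GC content of 30 to 40% was found at 0.834% of sgCtrl intergenic peaks and 45.4% of the windows, and a GC content of 60 to 70% at 44.5% and 1.14%. The median ratio of observed to expected CpG was 0.301 in intergenic peaks, 0.681 in promoter peaks and 0.170 in the windows. A ratio over 0.6, as at CpG islands, was found at 14.7% of sgCtrl intergenic peaks and 59.4% of promoter peaks. Intergenic peaks thus shared the high GC content of promoter peaks with fewer CpG dinucleotides.

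The ratio of peak number was not the same at all GC contents. In the bands of 30 to 40% and 40 to 50% GC the sgSNHG1 list held more intergenic peaks than the sgCtrl list, with 114 against 88 (ratio 1.30, 0.981 to 1.71) and 487 against 409 (1.19, 1.04 to 1.36). At 50 to 60% the ratio was 0.711 (0.676 to 0.748), at 60 to 70% it was 0.671 (0.641 to 0.702) and over 70% it was 0.871 (0.813 to 0.934). All peaks of chromosomes 1 to 22 had ratios of 1.76, 1.29, 0.746, 0.713 and 0.928 in the same bands, so that the pattern was that of the whole lists. The median log2 ratio of fold enrichment at peaks found in both lists was 0.03 at 40 to 50% GC and -0.25 over 70%. The part of GC content in the lower number of intergenic peaks was not tested.

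**Figure D4:**
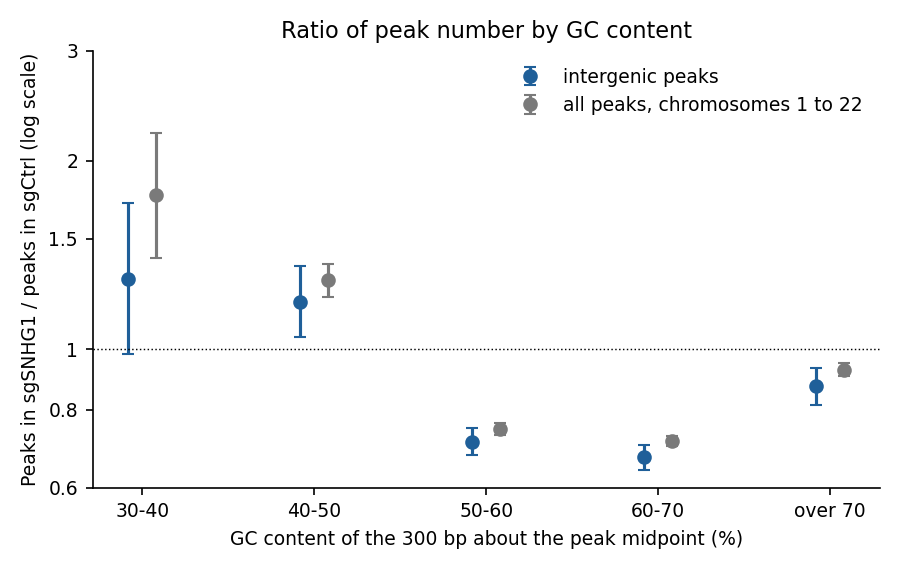
Number of sgSNHG1 peaks over number of sgCtrl peaks (y axis, log scale) in 5 bands of GC content of the 300 bp about the midpoint (x axis, percent), for intergenic peaks and all peaks of chromosomes 1 to 22; bars are 95% intervals from the counts and the dotted line marks equal numbers. Both sets lie above 1 under 50% GC and below 1 over 50% GC.

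Peaks in a single list differed in composition as well. Intergenic peaks found in both lists had a median GC content of 63.7% in sgCtrl. Those in the sgCtrl list alone had 61.0%, and those in the sgSNHG1 list alone had 57.7%.

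Motif letters in these windows followed GC content. AGATAA occurred in 2.82% (2.53 to 3.16) of sgCtrl intergenic windows, against 21.3% of the windows of the eligible space. TGANTCA occurred in 4.92% against 9.26%, TAATTA (a homeodomain motif) in 0.910% against 12.5%, and CCACNAGG (the core of a CTCF motif) in 8.30% against 2.94%. CANNTG, the general E-box, occurred in 82.2% against 78.9%, and CAGNTG, which is among its matches, in 72.6% against 45.6%. AT-rich motifs were thus less frequent in peaks than in the space around them, and GC-rich motifs more frequent.

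Compared at 50 to 60% GC, the differences from the eligible space were smaller for AGATAA and CAGNTG. For TGANTCA the difference was reversed in this band, with intervals that do not overlap. Among windows of 50 to 60% GC, AGATAA was found in 5.45% (4.64 to 6.40) of sgCtrl intergenic peaks of 1 copy, 6.64% (5.83 to 7.54) of promoter peaks and 7.26% (6.91 to 7.63) of the eligible space. TGANTCA was found in 8.55% (7.53 to 9.69), 5.66% (4.92 to 6.5) and 7.14% (6.79 to 7.51). CAGNTG was found in 74.6% (72.9 to 76.3), 58.0% (56.3 to 59.7) and 69.0% (68.4 to 69.7). In this band AP-1 and E-box letters were more frequent at intergenic than at promoter peaks beyond counting error. Distal peaks in gene bodies held CAGNTG in 72.9% (71.9 to 73.9), an interval that overlaps the intergenic one. For TGANTCA they had 6.25%, below the intergenic interval. These peaks and the promoter peaks were of all copies. At 60 to 70% GC, TGANTCA was in 4.57% (3.97 to 5.25) of intergenic peaks of 1 copy. The eligible space had 4.95% (4.13 to 5.92). CAGNTG was in 77.6% (76.3 to 78.8), against 75.2% (74.2 to 76.1) at distal peaks in gene bodies. Over all GC contents, intergenic peaks in the sgSNHG1 list alone held AGATAA in 5.76% (4.82 to 6.85), beside their lower GC content. Those in the sgCtrl list alone held it in 3.19% (2.73 to 3.72).

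Chromosome 4 had the lowest ratio of intergenic peak number. It held 439 sgCtrl and 188 sgSNHG1 intergenic peaks, a ratio of 0.428 (0.361 to 0.508), while all its peaks had a ratio of 0.579. Chromosome 18 held 34 and 19 (0.559, 0.319 to 0.980) and chromosome 9 held 500 and 342 (0.684, 0.596 to 0.785). The other 19 chromosomes lay between 0.689 and 0.828. On chromosome 4, 34.2% of sgCtrl intergenic peaks were overlapped by an sgSNHG1 peak, against 53.9% in all. Without chromosomes 4 and 9 the ratio of intergenic peak number was 0.761.

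Peaks that lie in groups are of interest because enhancers of a strongly expressed gene often do. Intergenic peaks within 12.5 kb of each other were joined, and 817 groups of 3 or more peaks were found in sgCtrl and 485 in sgSNHG1, a ratio of 0.594 (0.531 to 0.664). These groups held 34.4% and 27.2% of the intergenic peaks, and 44.2% and 50.4% of the peaks stood alone. Of the sgCtrl groups 44.4% overlapped a group of sgSNHG1, and of the sgSNHG1 groups 74.6% overlapped a group of sgCtrl. The ratio was lower for groups than for single peaks, and with lists of equal size it was 0.980.

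The largest group in both lists lay downstream of *MYCN*, the proto-oncogene amplified in these cells. It ran over chr2:16111233-16218399 with 41 peaks in sgCtrl and over chr2:16111217-16218399 with 43 in sgSNHG1. A second group nearest *MYCN* held 23 sgCtrl peaks at chr2:15949561-15996466 and 27 sgSNHG1 peaks. The median background under these groups was 1159 and 1306 fragments in sgCtrl and 882 and 1002 in sgSNHG1, against the lowest background of 4.89 and 4.66, in a region that is amplified. In all, 73 sgCtrl and 79 sgSNHG1 intergenic peaks had *MYCN* as the nearest gene, and 69 of the 73 were found in both lists. Their fold enrichment is relative to this high background and was low, with medians of 2.02 and 1.85. Of the 69, 61 had a lower value in sgSNHG1 (median log2 ratio -0.08), against 63.3% of all intergenic peaks found in both lists.

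The next groups were at other kinds of loci. Groups of 34 and 26 sgCtrl peaks, at chr14:105662043-105776725 and chr14:105537578-105641144, had *TMEM121* as the nearest gene. The sgSNHG1 groups that overlapped them held 24 and 21 peaks, at chr14:105681898-105776657 and chr14:105537585-105641023. All of these groups overlapped the immunoglobulin heavy chain locus, whose genes are annotated under types that the definition does not count. Between the ends of the immunoglobulin genes of chromosome 14 there were 65 sgCtrl and 52 sgSNHG1 intergenic peaks, of which 23 and 17 lay in constant genes and 0 and 0 in variable genes. A group of 27 sgCtrl and 28 sgSNHG1 peaks nearest the histone gene *H3-7*, at chr1:143184640-143266789, had no peak of 1 copy. A group of 24 sgCtrl peaks nearest *SMIM38*, at chr11:69179521-69252417, had only peaks of 1 copy. The sgSNHG1 group that overlapped it was shorter, with 15 peaks at chr11:69179502-69221114. The group nearest *H3-7* was thus about as large in sgSNHG1, and the group nearest *SMIM38* was smaller.

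The intergenic peaks of sgCtrl had 3883 protein-coding genes as nearest gene, or 19.4% of 20020, and those of sgSNHG1 had 3248 (16.2%). Most genes had few such peaks, with medians of 2 and 1, and 141 genes in sgCtrl and 75 in sgSNHG1 had 10 or more. Beside *TMEM121* (77 sgCtrl and 61 sgSNHG1 peaks) and *MYCN*, the 10 genes with the most sgCtrl peaks were *TPTE* (56 and 46), *C8orf90* (45 and 36), *DEFB115* (44 and 37), *BUD13* (43 and 30), *CWH43* (33 and 31), *HS6ST1* (33 and 28), *TNRC6C* (31 and 24) and *PTPRU* (30 and 14). *DEFB115* encodes a beta-defensin, *BUD13* a splicing factor, *HS6ST1* a heparan sulfate sulfotransferase, *TNRC6C* a factor of microRNA silencing and *PTPRU* a receptor tyrosine phosphatase. *MYCN* was the only 1 of the 10 with more peaks in sgSNHG1. Of the 30 sgCtrl peaks nearest *PTPRU*, 11 were found in both lists, against 53.9% of all sgCtrl intergenic peaks. These numbers were 19 of 43 at *BUD13* and 27 of 33 at *CWH43*. Of the peaks nearest *TPTE* and *CWH43*, 4 and 1 had 1 copy, while all 30 nearest *PTPRU* did.

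The ADRN list held 26 transcription factor genes, of which 20 had an intergenic peak in sgCtrl and 15 in sgSNHG1 (76.9% and 57.7%, against 19.4% and 16.2% of all protein-coding genes). These genes had 199 sgCtrl and 168 sgSNHG1 peaks, a ratio of 0.844 (0.688 to 1.04), and 0.706 without *MYCN*. Of the 199 peaks, 68.8% were found in both lists, with a median log2 ratio of -0.08. There were more peaks in sgCtrl at 17 of the genes, more in sgSNHG1 at 1, and equal numbers at 2. Over all protein-coding genes these numbers were 2099, 734 and 1388. The ratio without *MYCN* was thus close to that of all intergenic peaks.

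Among single ADRN genes, *SOX11*, a SoxC factor gene, had 28 intergenic peaks in sgCtrl and 20 in sgSNHG1. *GATA3*, a GATA factor gene, had 24 and 18, and *KLF13*, a zinc finger factor, had 10 and 9. *GATA2* had 8 and 5, *TBX3*, a T-box repressor, 8 and 6, *ZNF536* 8 and 6, *PBX3*, a TALE homeodomain factor, 7 and 5, and *LMO1*, a LIM-only protein and NB susceptibility gene, 6 and 5. *ISL1* had 5 in each list, *SOX4* and *HAND1*, a bHLH factor, 4 and 3, and *TFAP2B*, an AP-2 factor, 3 and 0. At *SOX11*, 9 of the 13 sgCtrl peaks found in both lists had a lower fold enrichment in sgSNHG1 (median log2 ratio -0.21), and at *GATA3* 7 of 14 did (0.00). Over all intergenic peaks found in both lists, 63.3% had a lower value. Except at *ISL1* and *MYCN*, each of these genes had fewer peaks in sgSNHG1, by 1 to 8 peaks.

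The list of 30 mesenchymal (MES) transcription factor genes had intergenic peaks at 7 genes in each list (23.3%), with 48 in sgCtrl and 34 in sgSNHG1, a ratio of 0.708 (0.456 to 1.10). Of the 48, 50.0% were found in both lists. *ETS1*, an ETS factor, had 12 and 10 peaks, *FOSL2*, an AP-1 subunit, 12 and 10, *TCF7L2*, a Wnt pathway factor, 8 and 5, *SOX9*, a neural crest factor, 7 and 3, *TWIST2*, a bHLH factor, 4 and 2, and *ID1*, an inhibitor of bHLH factors, 3 and 2. There were more peaks in sgCtrl at 6 genes, more in sgSNHG1 at 0, and equal numbers at 1. The share of MES genes with an intergenic peak was close to that of all protein-coding genes in sgCtrl, and that of ADRN genes was higher. The lists were written with earlier results of these data known, so this difference is a description and not independent evidence. The shares do not account for the eligible space about each gene.

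Of 34 neuronal and catecholamine genes, 19 had an intergenic peak in sgCtrl and 16 in sgSNHG1 (55.9% and 47.1%). These shares were 19.4% and 16.2% over all protein-coding genes. The list had 89 and 76 peaks (ratio 0.854, 0.629 to 1.16). *RET*, the receptor tyrosine kinase for GDNF family ligands, had 17 and 15 peaks, and *TH*, the rate-limiting enzyme of catecholamine synthesis, had 13 and 10. The axon guidance receptors *ROBO1* and *ROBO2* had 12 and 9 and 6 and 5, their ligand gene *SLIT2* 3 and 1, and the adhesion gene *NCAM2* 11 in each list. *EFNA5*, an ephrin, had 5 and 4, *CNTNAP2*, a neurexin family gene, 5 in each, and *ALK*, a receptor tyrosine kinase gene mutated in some NB, 3 and 2. *EPHA3*, an ephrin receptor, had 2 and 5. Over the whole list, 14 genes had more peaks in sgCtrl, 5 had more in sgSNHG1 and 3 had equal numbers. Of the 89 sgCtrl peaks 58.4% were found in both lists, and the median log2 ratio was 0.00.

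**Figure D5:**
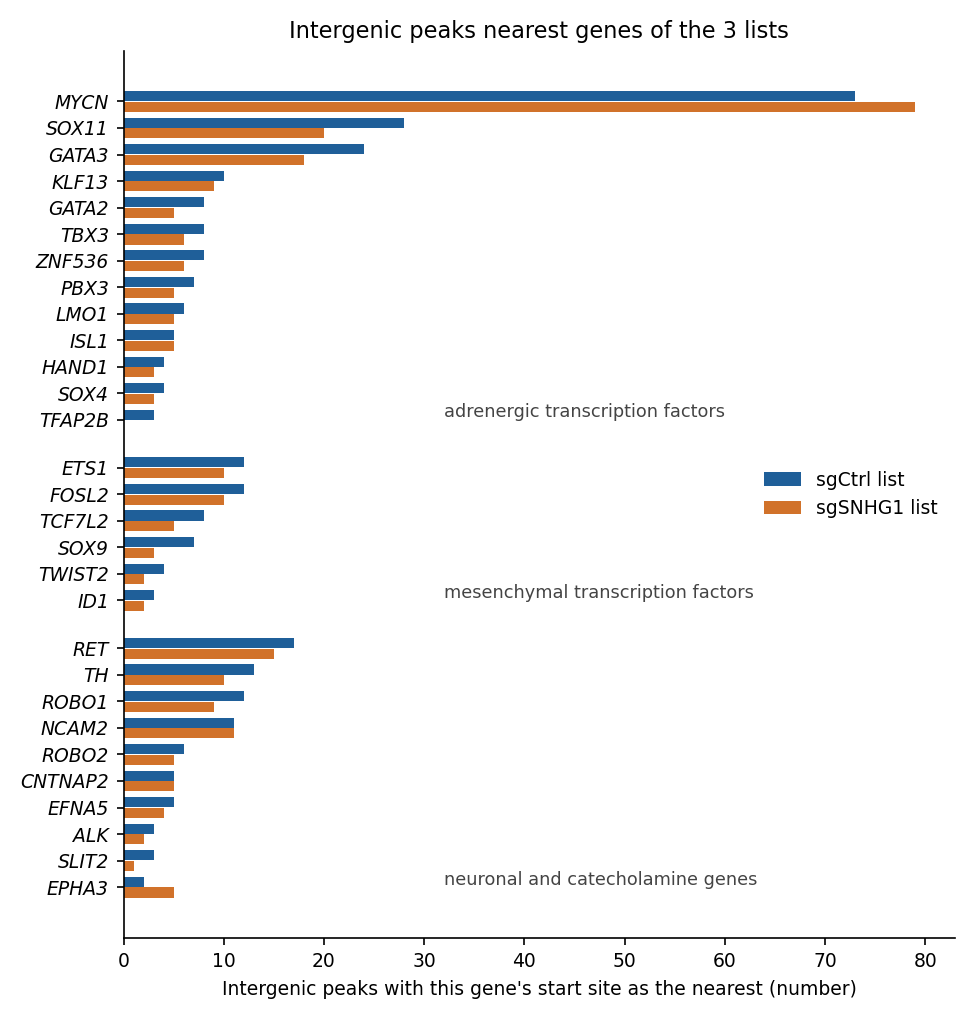
Number of intergenic peaks whose nearest protein-coding start site is that of the gene (x axis) for every gene of the 3 lists with at least 3 such peaks in either list (y axis), in the sgCtrl and sgSNHG1 lists. *MYCN* stands apart with 73 and 79 peaks, and *MYCN* and *EPHA3* are the only genes shown with more in sgSNHG1.

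The 5 strongest sgCtrl intergenic peaks over 1 kb from every sgSNHG1 peak had fold enrichments of 10.5 (nearest *FNIP2*), 9.54 (*FRG1*), 9.16 (*OR11H1*), 8.99 (*MKKS*) and 8.48 (*TYRP1*), on 65, 56, 53, 52 and 49 fragments. Those nearest *FNIP2* and *FRG1* lay on chromosome 4 and the peak nearest *TYRP1*, which encodes an enzyme of melanin synthesis, on chromosome 9. The peaks nearest *FRG1* and *TYRP1* had 1 copy, at chr4:189664652-189665254 and chr9:12658005-12659475. In all, 4152 of the 10550 sgCtrl intergenic peaks had no sgSNHG1 peak within 1 kb. Over all sgCtrl peaks of chromosomes 1 to 22 this held for 19879 of 63051.

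The 5 strongest sgSNHG1 intergenic peaks over 1 kb from every sgCtrl peak had fold enrichments of 20.2 (nearest *TPTE*), 14 (*ALG10B*), 13.6 (*SRGAP2C*), 13.6 (*ATP6V0D2*) and 11.1 (*BDP1*). All 5 had over 1 copy, from 5 to 1918, and were 216 to 327 bp long. Among peaks of 1 copy the strongest in sgSNHG1 alone had 10.3, nearest *PPIAL4F*, and the strongest in sgCtrl alone was the peak nearest *FRG1*. Of the 7842 sgSNHG1 intergenic peaks, 1573 had no sgCtrl peak within 1 kb. Over all sgSNHG1 peaks of chromosomes 1 to 22 this held for 6758 of 49412.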

How the data were processed

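H3K27ac was measured by ChIP-seq in 2 sgCtrl and 2 sgSNHG1 samples of SK-N-BE(2)C cells. The authors aligned reads to GRCh38 with BWA, merged samples within groups, and used MACS2 at a p-value of 1e-06 to call peaks. The input library and depth per sample are not given in the sources used here. Each deposited list gives a fold enrichment (a ratio, summit over local background) and the authors' −log10 p-value for every peak. The other deposited columns were not used.

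Peaks were placed by their midpoints against GENCODE release 44 with Python 3.11.15, numpy 2.4.6, pandas 2.3.3 and scipy 1.17.1, and figures were drawn with matplotlib 3.10.9. Fragment numbers were recovered from the fold enrichment and −log10 p, assuming a Poisson model and a pseudocount of 1. A whole number within 0.05 was obtained for all but 1 of the intergenic peaks. Copies are exact matches of 10 stretches of 30 bases per peak in the primary assembly, counted with numba 0.67.0. The share of masked repeats was planned and could not be computed, since the reference marks none. The interval and recovery functions were tested on simulated data.

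The intergenic peaks, gene lists, motifs and naming rule were chosen with earlier results of these data known. Named are the 5 strongest peaks found in both lists per distance class, the 5 strongest in each list alone (over 1 kb from the other list), the 10 genes with the most sgCtrl peaks, list genes with at least 3 peaks, the 5 largest groups per list, the 3 most extreme chromosomes, and up to 3 sequences per class of peaks with 1 copy, none from chromosome 8. Some of these sequences are not reported here. A match to a motif is a description, not a binding site. With 1 list per group there was no test. Alternatives covered the p threshold, list size, distance, gene types, overlap, chromosomes, copies and joining of peaks.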

Additional observations from a re-analysis of the deposited data

How the results depend on the processing

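Of 63 values recomputed under an alternative, 39 stayed within the counting interval of the reported value or, for numbers of peaks at gene lists, within 1.5 times, 22 moved out of it and 2 passed from below to above 1 with intervals that include 1. The cause of the other changes was not tested.

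With lists of equal size, which sets the numbers of all peaks equal by construction, the ratio of intergenic peak number was 1.01 (0.978 to 1.04) and that over 50 kb 1.04 (0.997 to 1.09), the shares of sgCtrl and sgSNHG1 peaks found in both lists were 65.0% and 66.0%, the median log2 ratio was -0.12 and the ratio of groups 0.980. With a −log10 p of at least 10 the ratios of peak number were 0.684 and 0.703 (over 50 kb), the shares 51.8% and 76.7% and the median log2 ratio of fold enrichment -0.074. With peaks of 1 copy alone the ratio was 0.717, the sgCtrl share 50.9% and the median log2 ratio of fold enrichment -0.070. Without chromosomes 4 and 9 the sgCtrl share was 55.1%. An overlap of at least 50% of both peaks gave shares of 44.2% and 59.5%, and a peak within 1 kb gave 60.6% and 79.9%. Groups of 5 or more peaks gave a ratio of 0.518. Fragments over the lowest background of each list, added after seeing the data, gave a median log2 ratio of -0.20. In windows of 200 bp AGATAA was in 1.75% and TGANTCA in 2.98% of sgCtrl intergenic peaks, and AGATAA was in 2.51% of those found in both lists. Leaving out the peaks nearest *MYCN*, also added after seeing the data, kept all 6 main values within their intervals.

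No paired analysis was possible because both samples of a group were pooled before peak calling, and no sample was left out in turn for the same reason. The spread between samples is unknown, a peak of repeated sequence has no certain origin, and weak peaks rest on few fragments. Absence from a list is not absence of the mark.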

Other observations

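On chromosome X, which the definition leaves out, 80 sgCtrl and 74 sgSNHG1 peaks met the same distance rule, a ratio of 0.925 (0.674 to 1.27). Of these, 32 of the sgCtrl and 31 of the sgSNHG1 peaks overlapped a peak of the other list, with median fold enrichments of 4.24 and 4.17. Of the sgCtrl intergenic peaks on chromosomes 1 to 22, 560 (5.31%) had their midpoint in an annotated pseudogene, and 55.9% of those were found in both lists.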
